A study of Mus musculus with 24 samples.

Results

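The Fmn1 and Grem1 landscape is an interval of 530.0 kb on mouse chromosome 2 (mm10) that holds the whole of Fmn1 (113327736 to 113716767, plus strand), Grem1 (113746164 to 113758646, minus strand) and Scg5 (113776362 to 113829121, minus strand). Its members are all peaks of the 7 deposited peak lists that fall in this interval, 425 of the 368246 peaks of those lists on chromosomes 1 to 19, X and Y. Membership used position alone and no measured value. The study mapped histone marks by ChIP-seq in developing limb buds that have or lack Sonic hedgehog, and in a cultured cell line with and without activation of the Hedgehog (HH) pathway. Each list was called by the authors on the 2 replicates of a condition together, from 14 ChIP and 10 input libraries, so a condition has 1 list and no spread between replicates can be read from it.

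Of the 7 lists, 5 come from whole forelimb buds of E10.5 Swiss Webster embryos with 32 to 35 somites, about 400000 cells for each ChIP. These are H3K27ac and H3K4me2 in wild-type (WT) embryos, and H3K27ac, H3K4me2 and H3K27me3 in Shh-/- embryos, which are null for the SHH ligand. By the study's methods the WT material mixed wild-type embryos with heterozygous littermates, and limb buds were pooled. No H3K27me3 list of WT limb buds was analysed here. The other 2 lists are H3K27ac in NIH3T3, an immortalized mouse embryonic fibroblast line, at 1000000 cells for each ChIP after 48 h with 400 nM purmorphamine, an agonist of Smoothened that switches the HH pathway on, or with DMSO as the control. The labels of both NIH3T3 conditions also name LIF, and the culture protocol describes low serum. The limb bud and NIH3T3 H3K27ac ChIPs used different antibodies.

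Grem1 encodes Gremlin 1, a secreted antagonist of bone morphogenetic proteins (BMPs) that relays the SHH signal of the posterior limb bud to fibroblast growth factors in the overlying ridge, and in the limb it is transcribed in mesenchyme only. Fmn1 encodes a formin, an actin nucleator, and its large introns hold distal limb enhancers of Grem1; mutations that damage this stretch give the limb deformity phenotype. Scg5 encodes the neuroendocrine chaperone 7B2. H3K27ac marks active enhancers and promoters, H3K4me2 marks promoters and enhancers whether or not they are active, and H3K27me3 is the Polycomb mark of repressed genes. GRE1 is a GLI3-bound region in an intron of Fmn1 named by the study, and its acetylated island is placed below. GLI proteins are the transcription factors at the end of the HH pathway.

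The sequences that carry the results are shown here, all from GRCm38 (mm10). The next 4 are windows of 300 bases around the summits of WT H3K27ac peaks, on the plus strand, with the 21 bases centred on the summit in capitals. The top 3 come from the best-ranked peaks that had no Shh-/- partner, and the last from the best-ranked peak of the landscape, which had one.
GRE1, chr2:113640553-113640852, intron of Fmn1: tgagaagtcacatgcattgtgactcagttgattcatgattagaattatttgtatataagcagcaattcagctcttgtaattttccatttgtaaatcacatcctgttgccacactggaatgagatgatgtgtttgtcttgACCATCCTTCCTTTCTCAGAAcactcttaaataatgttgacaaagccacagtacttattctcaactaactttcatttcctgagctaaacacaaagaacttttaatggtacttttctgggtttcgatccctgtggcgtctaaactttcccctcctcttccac
153 kb element, chr2:113605263-113605562, intron of Fmn1: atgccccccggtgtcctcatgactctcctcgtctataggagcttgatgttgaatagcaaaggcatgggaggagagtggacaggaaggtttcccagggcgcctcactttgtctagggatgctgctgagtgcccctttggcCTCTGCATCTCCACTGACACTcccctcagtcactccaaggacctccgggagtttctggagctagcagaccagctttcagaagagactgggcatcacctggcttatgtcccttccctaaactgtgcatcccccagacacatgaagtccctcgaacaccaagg
80.2 kb element, chr2:113678258-113678557, intron of Fmn1: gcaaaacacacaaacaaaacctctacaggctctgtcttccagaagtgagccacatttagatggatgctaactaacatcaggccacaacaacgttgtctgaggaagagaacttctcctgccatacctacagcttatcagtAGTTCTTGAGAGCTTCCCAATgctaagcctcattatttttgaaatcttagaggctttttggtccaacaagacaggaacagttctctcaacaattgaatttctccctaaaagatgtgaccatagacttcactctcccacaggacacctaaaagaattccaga
177 kb element, chr2:113581888-113582187, coding exon and flanking intron of Fmn1: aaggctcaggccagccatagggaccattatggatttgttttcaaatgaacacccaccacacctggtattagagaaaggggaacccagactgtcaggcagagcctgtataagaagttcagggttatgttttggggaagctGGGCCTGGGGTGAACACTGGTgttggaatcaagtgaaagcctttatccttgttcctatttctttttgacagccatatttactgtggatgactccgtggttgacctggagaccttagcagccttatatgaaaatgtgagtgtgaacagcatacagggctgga

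The 250 bases upstream of the Grem1 start in RefSeq follow, on the minus strand and all in lower case, because its ends lie in WT H3K27ac peaks, with a gap between them, and no Shh-/- H3K27ac peak touches it.
Grem1 promoter, chr2:113758649-113758898: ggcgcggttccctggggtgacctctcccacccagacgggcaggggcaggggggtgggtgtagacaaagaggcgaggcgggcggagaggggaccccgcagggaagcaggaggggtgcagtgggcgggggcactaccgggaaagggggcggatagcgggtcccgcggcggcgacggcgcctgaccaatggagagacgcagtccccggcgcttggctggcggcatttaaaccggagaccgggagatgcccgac

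The last 4 are the 3 exact matches of the interval to the GLI consensus GACCACCCA and the closest match inside GRE1, each with 20 bases on either side and the 9 bases of the match in capitals. The GRE1 match differs from the consensus by C8T, counted from 1 at the 5′ end of the consensus.
Match at 214 kb, chr2:113544917-113544965, plus strand: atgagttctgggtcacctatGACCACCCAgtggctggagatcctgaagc
Match at 144 kb, chr2:113614307-113614355, plus strand: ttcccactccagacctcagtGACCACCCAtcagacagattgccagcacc
Match at 124 kb, chr2:113634126-113634174, plus strand: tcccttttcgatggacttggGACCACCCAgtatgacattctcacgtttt
Match in GRE1, chr2:113641063-113641111, minus strand: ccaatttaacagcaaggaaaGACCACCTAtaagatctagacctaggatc

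In the WT limb bud list a chain of acetylated elements ran from the Grem1 start to 318 kb inside Fmn1. The Shh-/- list had a thinner version of the same chain, with no peak at the Grem1 promoter, GRE1 and a few others. The WT list held 38 H3K27ac peaks here, covering 20450 bp or 3.86% of the interval, against 0.853% of the genome. The Shh-/- list held 20 peaks over 6900 bp, or 1.30% of the interval against 0.723% of the genome. Acetylated sequence in the Shh-/- list was thus 33.7% of that in the WT list within the landscape, and 84.7% over all chromosomes. The number of peaks was 52.6% of WT in the landscape and 88.4% over all chromosomes.

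**Figure D1:**
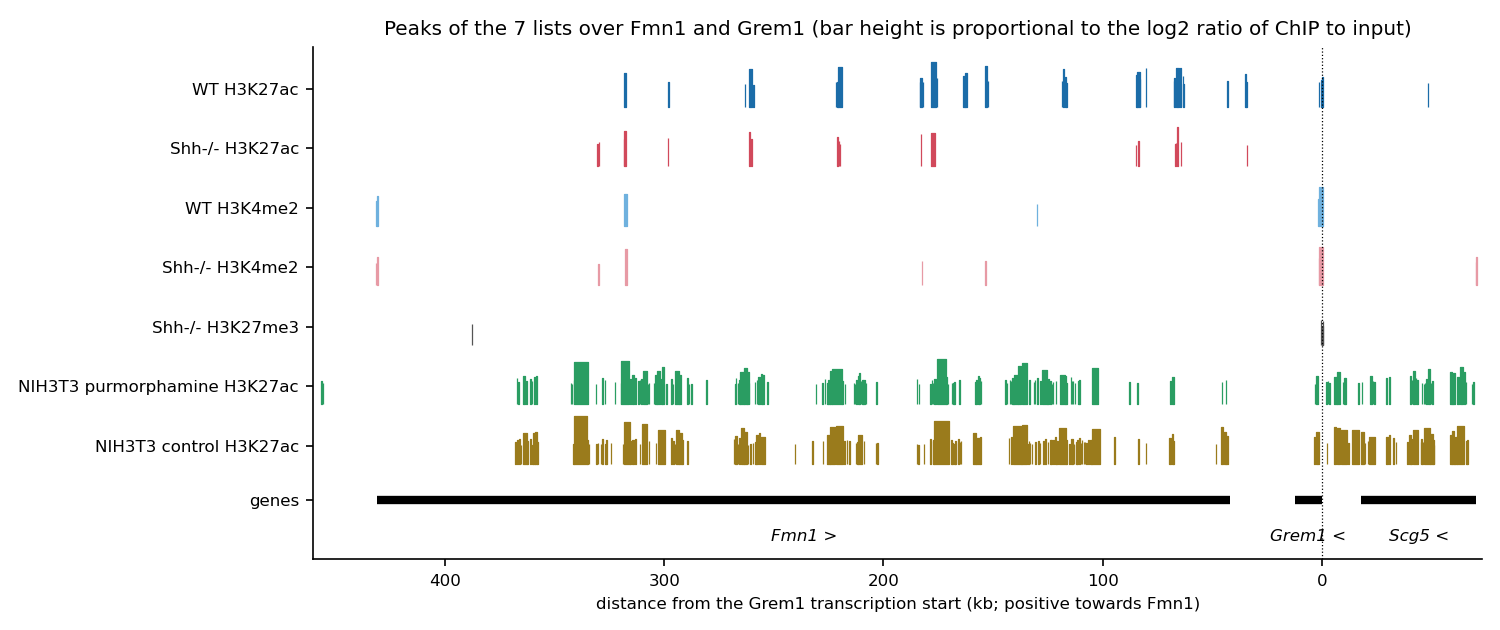
Peaks of the 7 lists by distance from the Grem1 transcription start in kb, positive towards Fmn1, with 1 row per list and bar height proportional to the log2 ratio of ChIP to input. Black bars are Fmn1, Grem1 and Scg5 with the direction of transcription as > or <. Limb acetylation runs from the Grem1 start to 318 kb in WT with gaps in Shh-/-, and the NIH3T3 lists fill the introns of Fmn1 more densely.

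Of the 38 WT H3K27ac peaks, 27 overlapped no Shh-/- H3K27ac peak by even 1 bp, 71.1% with a 95% Wilson interval of 55.2% to 83.0%, where 48.5% of all WT H3K27ac peaks had no partner. These intervals cover counting error only, and neighbouring peaks are not independent. The share of 48.5% counts overlap of called lists and does not measure change in signal. From reads counted over merged peaks, the study reports that most acetylated regions were found in both genotypes. When only the 50% of WT peaks with the better ranks were counted, 12 of 21 in the landscape lacked a partner, or 57.1%, against 24.9% of all peaks of that rank. Of the 27, 14 were more than 2 kb from any Shh-/- peak and 5 lay within 500 bp of one. In the other direction, 5 of 20 Shh-/- H3K27ac peaks had no WT partner, 25.0% with an interval of 11.2% to 46.9%, against 38.4% of the whole list. The landscape thus stood above its list for WT-only acetylation, and its Shh-/- only share had an interval that includes that of its list. No test of these differences was made, since the locus was chosen with results of these data known.

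**Figure D2:**
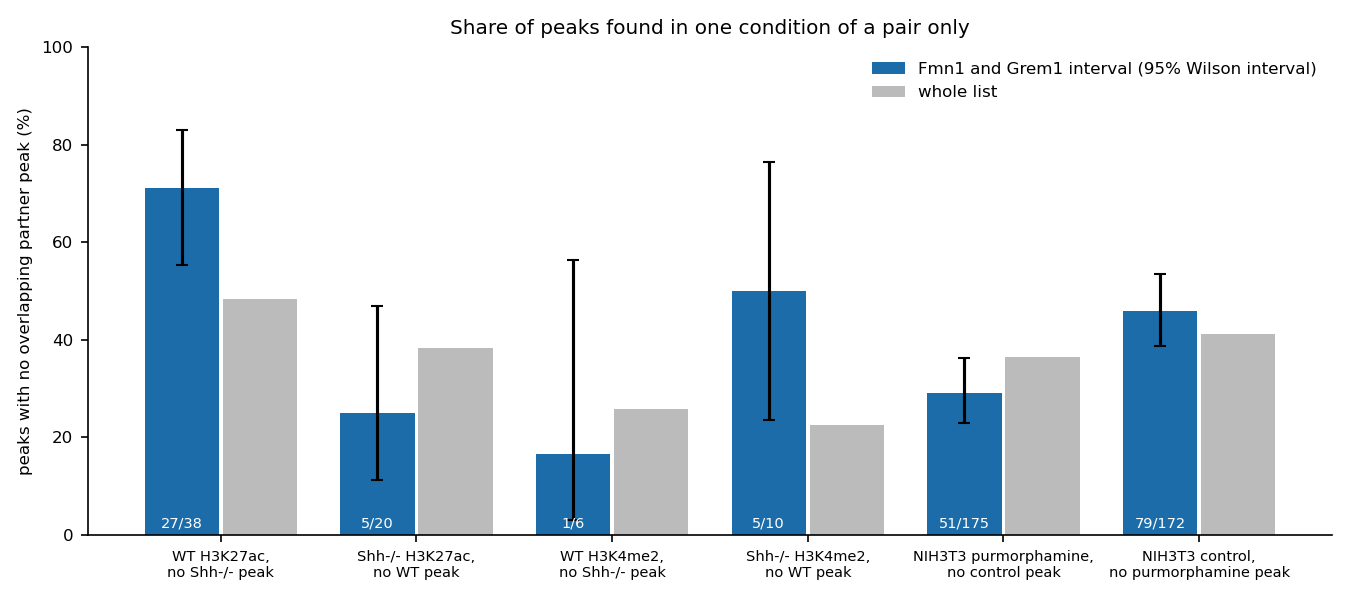
Percent of peaks in the Fmn1 and Grem1 interval (blue, with 95% Wilson intervals of counting error) and in the whole list (grey) that overlap no peak of the partner list, for the 6 directions of the 3 pairs, with counts inside the blue bars. The WT H3K27ac bar, 27 of 38, lies above the 48.5% of its list with its whole interval, and purmorphamine, 51 of 175, lies below the 36.5% of its list.

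To see the elements rather than single peaks, limb H3K27ac peaks of either genotype were joined where they lay within 1000 bp, which gave 18 acetylated islands. There were 9 islands in both lists, 8 in the WT list only and 1 in the Shh-/- list only. Islands were formed in this interval only. No share over all chromosomes thus stands beside these counts, and they do not show an excess at this locus. The lists end at unlike FDRs, 0.0473 in WT and 0.0673 in Shh-/-. In the landscape 38 of 38 WT peaks and 14 of 20 Shh-/- peaks had an FDR under 0.05. With that limit in both lists 9 islands were WT only. Distances below are from the Grem1 start to the middle of the island, positive towards Fmn1. A rank is the place of a peak in its own list, 1 being the strongest. The WT list has 49679 H3K27ac peaks and the Shh-/- list 43916, so between genotypes the place is given as a percent of the list, which orders peaks within a list and measures no change between lists. A log2 ratio is the largest ratio of ChIP to input within the peak.

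The promoter of Grem1 itself had H3K27ac peaks in the WT list only. The list had 3 WT peaks between 113757150 and 113759049, of which the strongest (113758850 to 113759049) had rank 19818 and a log2 ratio of 3.30, and the peak over the start (113758200 to 113758699) rank 31117 and a log2 ratio of 2.90. No Shh-/- H3K27ac peak lay there or within 20 kb of the gene. Acetylation of the promoter was modest by WT standards, in the middle of the list and below the stronger distal elements. Its 3 peaks fell in rank deciles 4, 7 and 8 of the WT list. Of all WT peaks in those deciles 39.6%, 68.8% and 73.6% also had no Shh-/- partner. A missing partner is thus common at these ranks.

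GRE1 lay in the WT-only island at 118 kb. Its 4 WT peaks spanned 113640000 to 113642249 and covered 1600 bp, and the strongest, whose sequence is shown above, had rank 8354 and a log2 ratio of 4.15. No limb H3K4me2 or H3K27me3 peak overlapped it. The 100 to 150 kb stretch around it held 4 WT H3K27ac peaks and no Shh-/- peak.

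Still stronger was the WT-only island at 153 kb (113604850 to 113606349, an intron of Fmn1). Its best peak had rank 5866 and a log2 ratio of 4.49, the best-ranked WT-only peak of the landscape. A narrow Shh-/- H3K4me2 peak of 150 bp (113605150 to 113605299, rank 27386, log2 ratio 2.71) lay inside it, and no WT H3K4me2 peak did. At this element acetylation was listed in WT only and H3K4me2 in Shh-/- only.

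The island at 163 kb (113595050 to 113596749, over a coding exon of Fmn1) held 2 WT peaks and 1550 bp, with a best rank of 13342. The island at 80.2 kb (113678250 to 113678599) was a single narrow peak with rank 7727 and a log2 ratio of 4.23. Together with GRE1 and the 153 kb island it supplied the 3 peaks of the second rank decile of the WT list that lacked a Shh-/- partner. The landscape had 7 peaks in that decile, and 8.23% of all peaks of that decile lacked a partner. The first decile gave 0 of 1, against 0.825% of all its peaks. Deciles 3, 4 and 5 gave 1 of 3, 4 of 5 and 4 of 5, against 23.6%, 39.6% and 52.2%. Deciles 7 to 10 gave 4 of 4, 6 of 8, 2 of 2 and 3 of 3, against 68.8%, 73.6%, 76.1% and 78.3%. The remaining WT-only islands were weak. They lay at 43.2 kb in the untranslated last part of Fmn1 (rank 31945), at 263 kb (rank 47251) and at -48.3 kb in an intron of Scg5 (rank 43442).

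**Figure D3:**
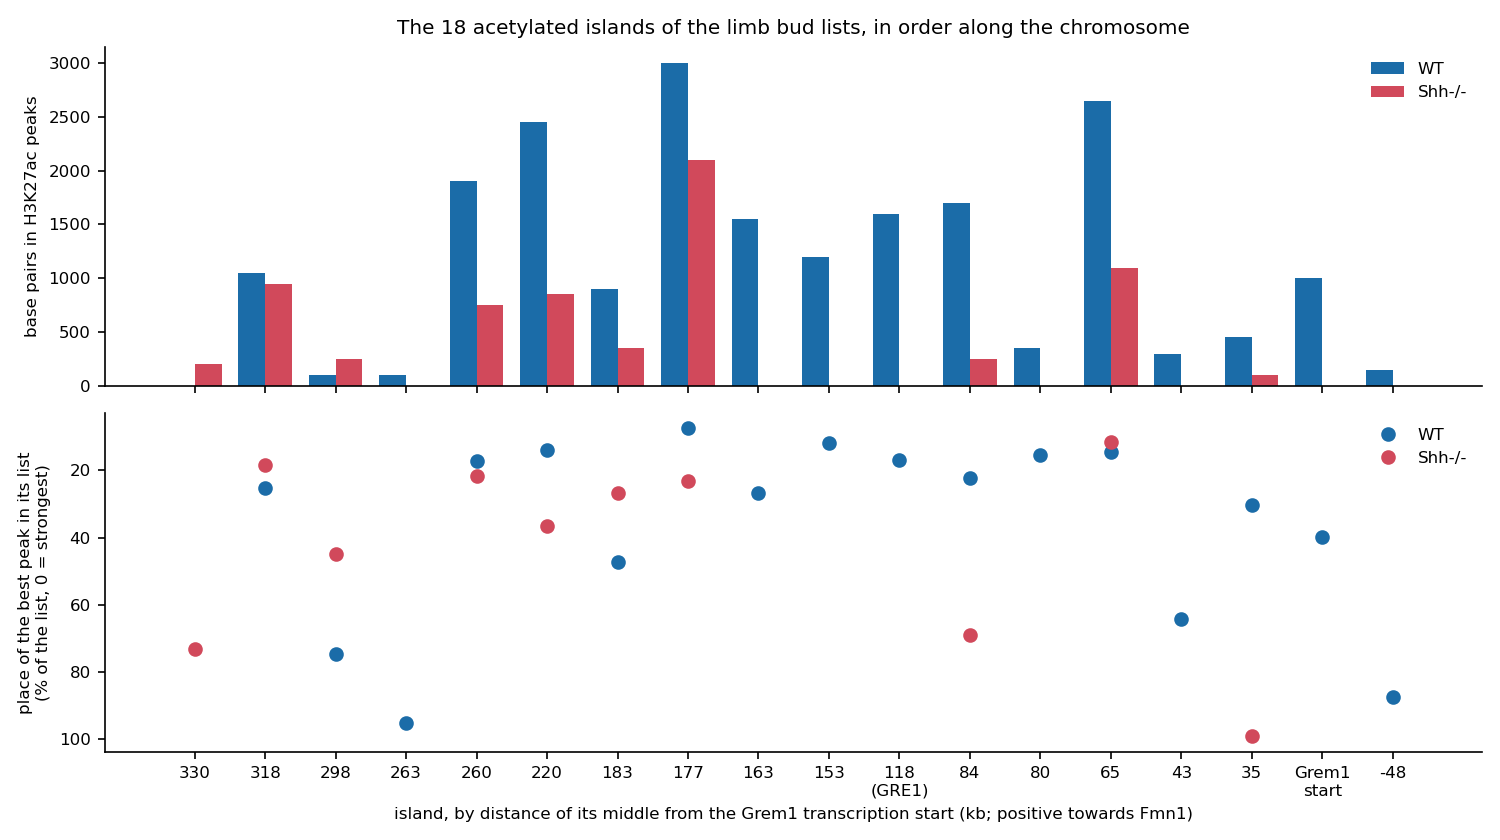
The 18 limb acetylated islands in order along the chromosome, labelled by kb from the Grem1 start. The top panel gives base pairs in H3K27ac peaks for WT (blue) and Shh-/- (red), and the bottom panel gives the place of the best peak as a percent of its own list, with the strongest at the top of a linear axis. Red bars are missing at 8 islands, GRE1 and the Grem1 start among them, and at 65.4 kb the places are 14.6% in WT and 11.7% in Shh-/-.

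The islands present in both lists were narrower in Shh-/- at 8 of 9. The best-ranked WT peak of the landscape, at 177 kb over a coding exon of Fmn1 (rank 3713, log2 ratio 4.91), was listed in Shh-/- with 2100 bp against 3000 bp in WT and a log2 ratio of 3.70. Its best peak stood 7.47% down the WT list and 23.2% down the Shh-/- list. At 220 kb acetylated sequence was 2450 bp in WT and 850 bp in Shh-/-, with log2 ratios of 4.33 and 3.28 and places of 13.9% and 36.6%. At 83.9 kb it was 1700 bp and 250 bp, with log2 ratios of 3.87 and 2.74 and places of 22.3% and 68.9%. These 3 elements were narrower in the Shh-/- list and lower in its order.

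At the shared islands at 65.4 kb, 183 kb and 318 kb width and place in the list did not go together. Each was narrower in Shh-/-, with its best peak higher in that list. At 65.4 kb the best Shh-/- peak had rank 5122 and a log2 ratio of 4.33, the best-ranked Shh-/- acetylation of the landscape, against 4.29 in WT, while acetylated sequence was 1100 bp against 2650 bp. Its places were 14.6% in WT and 11.7% in Shh-/-. The island at 183 kb had 900 bp in WT and 350 bp in Shh-/-, log2 ratios of 3.14 and 3.56 and places of 47.3% and 26.7%. That at 260 kb was both narrower and lower in Shh-/-. It had 1900 bp in WT and 750 bp in Shh-/-, log2 ratios of 4.12 and 3.76 and places of 17.3% and 21.8%. At 298 kb the peaks of the genotypes did not overlap. There Shh-/- had 250 bp against 100 bp in WT, with places of 44.9% and 74.7%. At 34.6 kb a weak WT peak overlapped the Shh-/- peak of 100 bp with rank 43504 and an FDR of 0.0646. The stronger WT peak there (113723650 to 113723899, rank 15041) had no partner. This island too was narrower in Shh-/-, against 450 bp in WT, and lower, with places of 30.3% in WT and 99.1% in Shh-/-.

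The 5 Shh-/- H3K27ac peaks without a WT partner were short. A pair of 100 bp at 330 kb (113428200 to 113428299, rank 42171, and 113428750 to 113428849, rank 32123) made the only Shh-/- only island. A peak at 298 kb (113460200 to 113460449) had rank 19740. The other 2 lay at the edge of the 65.4 kb island (113691700 to 113691849, rank 41539, and 113691950 to 113692099, rank 38947). None of these 5 reached a log2 ratio above the 3.10 of the 298 kb peak. Those with ranks 42171 and 41539 had FDRs of 0.0555 and 0.0523.

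The intragenic start of an Fmn1 isoform, 318 kb from Grem1 and shared with the antisense gene Gm13963, was the most evenly marked element. It was acetylated over 1050 bp in WT (rank 12476) and 950 bp in Shh-/- (rank 8108), and both NIH3T3 lists covered it. H3K4me2 covered it in both genotypes, with rank 11199 and a log2 ratio of 3.53 in WT and rank 5548 and 3.98 in Shh-/-. The 5′ start of full-length Fmn1, 431 kb from Grem1, differed from it in having no H3K27ac peak in any list. There H3K4me2 was in both genotypes, with best ranks of 14817 in WT and 18337 in Shh-/-.

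H3K4me2 covered the landscape about as it covered the genome, and its best-ranked peaks lay at gene starts. The WT list had 6 peaks over 4050 bp, 0.764% of the interval against 0.805% of the genome, and the Shh-/- list 10 peaks over 4700 bp, 0.887% against 0.724%. Among WT peaks 1 of 6 (at 130 kb, rank 29743) had no Shh-/- partner, against 25.7% of the list, and 5 of 10 Shh-/- peaks had no WT partner, against 22.5%. The Wilson intervals were wide, 3.01% to 56.4% for WT, which includes the share of its list, and 23.7% to 76.3% for Shh-/-, which lies just above that of its list. The 5 Shh-/- only peaks lay at 330 kb, 182 kb and 153 kb and, as a pair, at the start of Scg5 (best rank 19133, log2 ratio 3.13).

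At the Grem1 start H3K4me2 was nearly the same in both genotypes. The WT peak ran from 113757250 to 113759049 with rank 2419 and a log2 ratio of 4.28, and the Shh-/- peak from 113757450 to 113759199 with rank 2791 and a log2 ratio of 4.27. These are the best-ranked H3K4me2 peaks of the landscape in each list. The promoter therefore kept H3K4me2 in the Shh-/- list at a place where that list had no H3K27ac peak.

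H3K27me3, measured in Shh-/- only, had 4 peaks in the landscape, and 3 of them flanked the Grem1 start. The strongest (113758050 to 113758299) had rank 5299, a log2 ratio of 2.69 and a false discovery rate (FDR) of 0.00319. The next, 113759150 to 113759349, had an FDR of 0.0370. The 2 others, at 113758850 to 113758949 next to the start and at 113370950 to 113371049 in Fmn1 (388 kb), had FDRs of 0.218 and 0.111. Of the 4 peaks 3 overlapped a limb H3K27ac or H3K4me2 peak, where 23.4% of all H3K27me3 peaks did. The WT H3K27ac peaks under H3K27me3 were 2 of 38, or 5.26% with an interval of 1.46% to 17.3%, against 0.725% of the WT list. Both were at the Grem1 start, and 1 of them (113758850 to 113759049) met only the H3K27me3 peak with an FDR of 0.218. This sets WT acetylation beside Shh-/- H3K27me3, from different embryos, and no list of H3K27me3 in WT was used here.

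**Figure D4:**
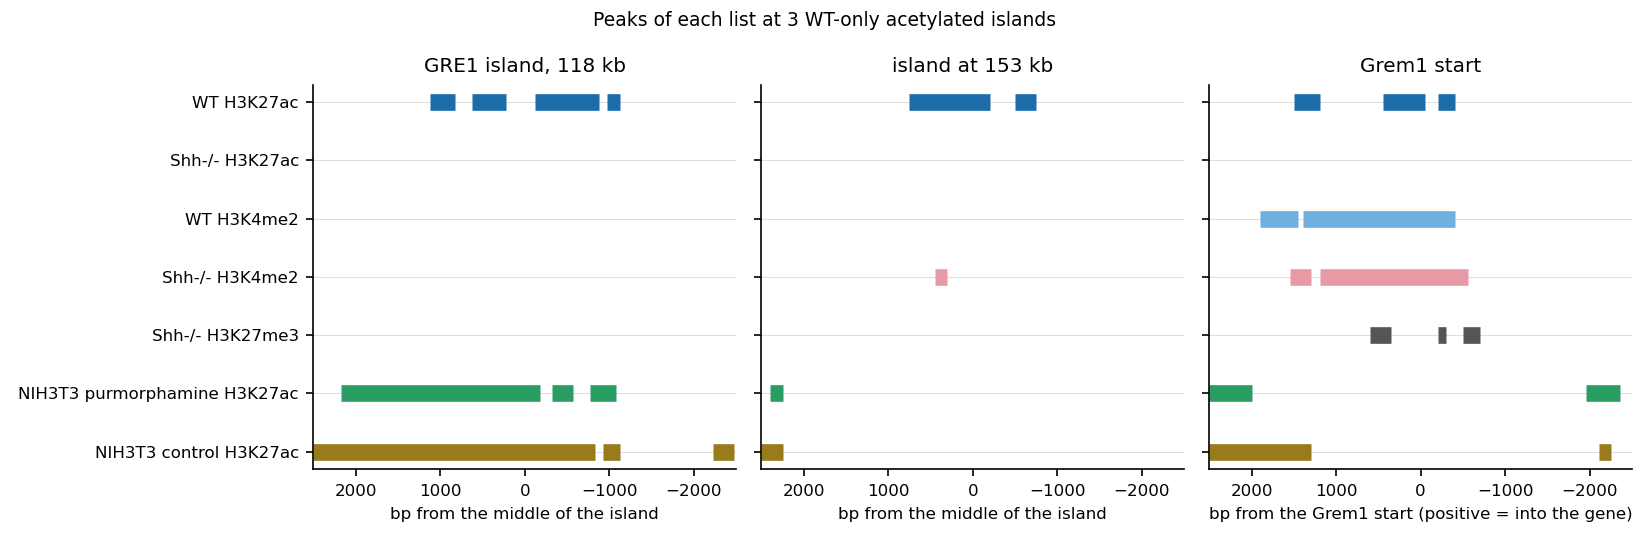
Peaks of each list within 2500 bp of the middle of the GRE1 island, of the middle of the 153 kb island and of the Grem1 start, in bp, positive towards Fmn1; bars that reach the frame run on beyond it. WT H3K27ac is in all 3 and Shh-/- H3K27ac in none, H3K4me2 of both genotypes lies over the Grem1 start with 3 Shh-/- H3K27me3 peaks, and NIH3T3 peaks cover GRE1.

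Away from the Grem1 promoter and the intragenic Fmn1 start, no limb H3K27ac peak of the landscape overlapped an H3K4me2 peak of its own genotype. WT H3K27ac peaks with a WT H3K4me2 peak were 4 of 38, with an interval of 4.17% to 24.1%, where 32.1% of all WT H3K27ac peaks had one. In Shh-/- it was 1 of 20, or 5.00%, with an interval of 0.888% to 23.6%, against 31.5%. The 4 WT peaks were the intragenic Fmn1 start and the 3 peaks of the Grem1 promoter, and the Shh-/- peak was the intragenic Fmn1 start. The shares of the whole lists include peaks at promoters, and no share for peaks away from promoters is given.

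The NIH3T3 lists covered more of the landscape than the limb lists did. The purmorphamine list held 175 peaks over 92350 bp, 17.4% of the interval against 2.08% of the genome, and the control list 172 peaks over 124250 bp, 23.4% against 2.21%. The strongest control peak spanned 6100 bp at 338 kb (113417400 to 113423499, rank 475, log2 ratio 5.29). The next were at 173 kb (113581750 to 113588549, rank 2117) and over the intragenic Fmn1 start at 317 kb (113440100 to 113442899, rank 2332). The same 3 places led the purmorphamine list, in another order, with ranks of 1144 at 174 kb, 2517 at 318 kb and 2924 at 338 kb. The elements at 174 kb and 318 kb also held limb H3K27ac peaks of both genotypes.

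Limb and NIH3T3 coverage were alike in some bins and not in others. Limb coverage was highest at 150 to 200 kb, at 13.3% of bases in WT, and NIH3T3 coverage there was 18.2% with purmorphamine and 28.2% in the control. At 50 to 100 kb it was 9.40% in WT limb buds, 3.10% with purmorphamine and 4.80% in the control. In turn, limb coverage was 0.806% in WT in the 50 kb beyond the Grem1 start, where NIH3T3 control cells had 47.3%. Between the end of Fmn1 and Grem1 no NIH3T3 peak was listed, and NIH3T3 peaks entered the body of Grem1 without reaching its start, the nearest ending at 113757349 in the control list (rank 19526).

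**Figure D5:**
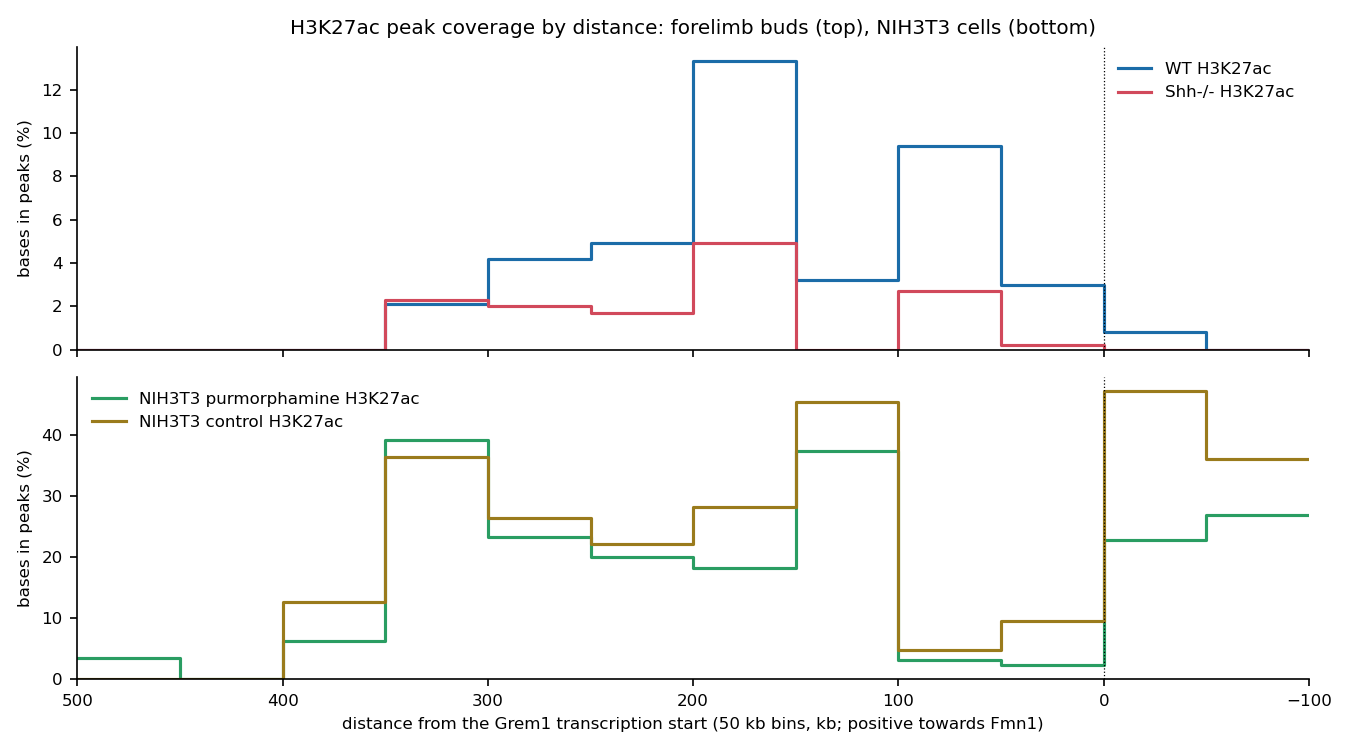
Percent of bases in H3K27ac peaks in 50 kb bins by distance from the Grem1 start, for forelimb buds (top, WT blue, Shh-/- red) and NIH3T3 cells (bottom, purmorphamine green, control brown), on separate linear axes. WT limb coverage peaks at 13.3% between 150 and 200 kb, and NIH3T3 coverage is at most 9.60% between the Grem1 start and 100 kb.

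Purmorphamine-treated cells had less acetylated sequence here than control cells. Covered sequence with purmorphamine was 74.3% of the control in the landscape and 93.8% over all chromosomes. Of 175 purmorphamine peaks 51 had no control partner, 29.1% with an interval of 22.9% to 36.3%, against 36.5% of the whole list. Of 172 control peaks 79 had no purmorphamine partner, 45.9% with an interval of 38.7% to 53.4%, against 41.1%. Only the purmorphamine interval lay clear of its list, and narrowly. Among the better-ranked 50%, 2 of 65 purmorphamine peaks had no control partner, or 3.08%, against 16.0%, and 14 of 78 control peaks had no purmorphamine partner, or 17.9%, against 16.9%.

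The gap between the conditions was widest beyond Grem1, where 24.0% of bases were covered with purmorphamine and 43.9% in the control. Within Fmn1 the values were 19.1% and 23.4%. Around Grem1 itself, with 20 kb on either side, covered sequence was 5.25 kb with purmorphamine and 12.8 kb in the control. Coverage with purmorphamine was above the control at 300 to 350 kb (39.2% against 36.5%) and in the outermost bin, beyond 450 kb (3.47% against 0%).

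The limb elements and the NIH3T3 elements met at a few points. Of WT limb H3K27ac peaks 18 of 38 overlapped an NIH3T3 peak of either condition, 47.4% against 41.6% of the whole list, and of Shh-/- peaks 8 of 20, against 43.5%. The WT-only peaks gave 12 of 27, 44.4% against 28.2%, and the shared WT peaks 6 of 11, 54.5% against 54.3%. All 4 counting intervals included the share of the whole list, that of the WT-only peaks barely, with a lower bound of 27.6%. From the NIH3T3 side, 16 of 172 control peaks (9.30%, background 20.7%) and 15 of 175 purmorphamine peaks (8.57%, background 21.2%) overlapped a limb H3K27ac peak.

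At GRE1 the 2 NIH3T3 lists covered 1850 bp with purmorphamine and 2150 bp in the control, so this island was acetylated in fibroblasts in both conditions and in limb buds in the WT list only. The islands at 153 kb and 163 kb had no NIH3T3 peak in either condition. The 80.2 kb island had 100 bp of it, in the control only.

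Joined across all 7 lists, the peaks formed 235 elements, of which 192 held NIH3T3 peaks only, 31 limb peaks only and 12 both. No element was in all 7 lists and 2 were in 6. The intragenic Fmn1 start lacked only H3K27me3, and the Grem1 start lacked only Shh-/- H3K27ac. Joined, the Grem1 start element includes a control NIH3T3 peak and a purmorphamine peak in the gene body, which lie beside the start rather than on it.

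Exact GLI consensus matches (GACCACCCA, either strand) were few, and none lay in a limb peak. The 3 in the interval are shown above. The match at 214 kb was in no peak, 5088 bp from the nearest limb H3K27ac peak. The matches at 144 kb and 124 kb each lay in an NIH3T3 purmorphamine peak (ranks 48830 and 44613 of 87779) that no control peak overlapped. At 124 kb a control peak (113633600 to 113633749) ended directly beside that purmorphamine peak. Purmorphamine peaks without a control partner were 29.1% in the landscape and 36.5% of the whole list. An exact match occurred in 0.193% of windows of 300 bp on chromosome 2, in 0.242% of the summit windows of all WT H3K27ac peaks and in 0.253% of 32851 RefSeq promoters.

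With up to 1 mismatch, 95 matches lay in the interval, 31 of them in a peak and 4 in a limb H3K27ac peak, and such a match occurred in 5.67% of windows on chromosome 2. Those 4 lay at 318 kb (C3A) and, 3 of them, at the 177 kb element (A9T, C3A and C8G), which was the strongest WT element. The GRE1 match (C8T) fell in the gap between the WT limb peaks 113640500 to 113640899 and 113641250 to 113641999, and inside NIH3T3 peaks of both conditions. Of the HOX13-type letters CAATAAA, either strand, none was found in the 38 WT summit windows, against 5.22% of all WT summit windows and 8.42% of chromosome 2 windows. The E-box letters CATCTG were in 6 of 38, or 15.8%, against 19.1% and 21.9%. The Grem1 promoter of RefSeq held none of these. A match is a run of letters and not a shown binding site.

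Other genes of the SHH, BMP and FGF feedback loop serve to place Grem1. With 20 kb on either side, Grem1 had 3 WT and 0 Shh-/- H3K27ac peaks. Of 10 other loci (Shh, Gli1, Gli3, Ptch1, Hand2, Bmp2, Bmp4, Bmp7, Fgf4 and Fgf8) 8 had a WT H3K27ac peak, and all 8 also had a Shh-/- peak. The windows grow with the gene, so a long gene such as Gli3 has more room for a Shh-/- peak than Grem1 has. At Gli1, a direct HH target, there were 4 WT peaks and 1 Shh-/- peak, and at Hand2, a transcription factor gene upstream of Shh, 21 and 9. WT peaks that overlapped no Shh-/- peak were 3 of 3 at Grem1, 3 of 4 at Gli1 and 15 of 21 at Hand2. Over the 10 other loci they were 48 of 90. Bmp4, a ligand that Gremlin 1 binds, had 5 and 9. H3K27me3 peaks of Shh-/- limb buds were at Grem1 (3 peaks) and at 9 of the 10 other loci. The 2 loci without H3K27ac in either genotype were Shh and Fgf4.

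Genes with the most similar pattern to Grem1 over the 7 lists, by the Euclidean distance of covered kb within 20 kb of the gene among 21911 protein-coding genes, were Ciapin1, A930002H24Rik, AI837181, Tes and Pxdn, at distances of 1.70 to 1.91 kb. Each of these had some Shh-/- H3K27ac (0.500 to 1.15 kb), unlike Grem1 at 0. Their H3K27me3 was 0 to 0.164 kb, against 0.55 kb at Grem1. The distance uses covered kb without scaling, so lists with more covered sequence can weigh more. At Grem1 these were the NIH3T3 lists, with 5.25 kb and 12.8 kb against at most 2.25 kb in a limb list.

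As a check of the tissue, starts of 8 of 8 limb mesenchyme markers (such as Prrx1 and Tbx5) had an H3K27ac peak within 1 kb in both genotypes. Ectoderm and ridge markers had 0 of 6 in both, endothelial markers 1 of 4 in each (Cdh5 in WT and Pecam1 in Shh-/-), blood markers 1 of 4 in WT and 0 of 4 in Shh-/-, and muscle precursor markers 0 of 4 in WT and 2 of 4 in Shh-/-. The part of such differences in cell makeup in the Grem1 result was not tested, and fewer cells of a type and less acetylation per cell cannot be told apart in whole buds. Fibroblast markers were at 3 of 6 in WT, 4 of 6 in Shh-/-, 5 of 6 with purmorphamine and 6 of 6 in the NIH3T3 control, and genes silent in both sources at 0 of 4 for H3K27ac in every list.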

How the data were processed

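The authors aligned ChIP-seq reads to mm10 (Bowtie2 2.2.5 and limma are named in the submitters' processing notes, where roles are not given) and called peaks with CisGenome 2.1.0 against input on the 2 replicates of a condition together. Each deposited list gives, per peak, an FDR (a q-value set by the authors' caller), a score by which peaks are ranked, a log2 ratio (the maximum of ChIP over input within it) and the −log10 of the smallest Poisson p, which stops at 100. The values were used as deposited. The study's methods state a minimum number of reads for its ChIP samples, but the lists hold no read counts, so the depth of each library and the spread between replicates cannot be read from them; no p-value was computed. Whether list coordinates start at 0 or 1 is not stated, so positions may be off by 1 base.

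Peaks of the 530.0 kb interval on chromosome 2 were taken from all 7 lists with Python 3.11.15 and pandas 2.3.3. A peak was shared if at least 1 bp overlapped the partner list. Shares have 95% Wilson intervals, which cover counting error only, and stand beside the share over the whole list. Elements are peaks of all lists joined on overlap. Islands are limb H3K27ac peaks joined within 1000 bp, a rule chosen after seeing the data. Annotation was GENCODE vM21 basic, and sequence GRCm38 RefSeq (pysam 0.24.0). The overlap and interval code was tested on simulated data. Named elements were those over gene starts and GRE1, the 3 best-ranked peaks of each list, all Shh-/- only H3K27ac peaks, all H3K27me3 peaks, those with an exact GLI match and those in 5 or more lists; the islands were named after their values were seen. The members and lists were chosen with earlier results of these data known. Alternatives were a 50% overlap, a 500 bp gap, the better-ranked 50%, FDR under 0.05, lists of equal size and base pairs in place of peaks.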

Additional observations from a re-analysis of the deposited data

How the results depend on the processing

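No paired analysis was possible because each list was called on both replicates together and holds no column per replicate. For the same reason no replicate could be left out. Of the alternative values 43 stayed within the counting interval of the value reported, or within 1.5 times a count, and 18 moved beyond it. WT-only H3K27ac peaks made up 57.9% to 86.8% of the WT peaks of the landscape under all alternatives, the highest with an overlap of 50% required. The lowest, with gaps of up to 500 bp counted as shared, had an interval of 42.2% to 72.1%. That interval includes the 48.5% of the whole list at 1 bp of overlap. Shares of the whole lists under the alternatives are not given, so the values here and below have no background. The cause of no change was tested.

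With an overlap of 50% required, 37.7% of purmorphamine and 60.5% of control peaks were unshared. With gaps of up to 500 bp counted as shared these became 13.1% and 20.3%, Shh-/- only H3K27ac 10.0%, Shh-/- H3K27ac with H3K4me2 25.0% and limb peaks of both genotypes with an NIH3T3 peak 62.1% in place of 44.8%. In the better-ranked 50% of both lists, WT-only H3K4me2 was 0.0% (0 of 3) and purmorphamine-only 15.4% (10 of 65). H3K27me3 peaks under a limb mark were 100.0% there (2 of 2), and also at an FDR under 0.05 (100.0%, 2 of 2). Counted in base pairs, purmorphamine-only sequence was 20.8%. Joining peaks within 500 bp or 1000 bp gave 88 and 46 elements in place of 235. With 1 mismatch 23 elements held a GLI match in place of 2. Of the 5 genes most like Grem1, 0 were kept with 50 kb on either side. WT-only islands numbered 7 to 11 under 4 alternatives added after seeing the data, and 5 when the better-ranked 50% of the WT list was set against the whole Shh-/- list. A peak missing from a list may lie just under its threshold, and the lists do not give the depth of each library.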
